A study of Mus musculus with 2 samples.

Results

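Complement is a system of plasma and tissue proteins that marks surfaces and immune complexes for removal. In the classical pathway the recognition molecule C1q, built from the chains encoded by C1qa, C1qb and C1qc, binds its target and starts a cascade that cleaves C3. Factor B (Cfb) and properdin (Cfp) belong to the alternative pathway, in which factor B supplies the catalytic part of the C3 convertase and properdin stabilises it. The fragments C3a and C5a are read by the receptors C3ar1 and C5ar1. Liver makes most plasma C3 and factor B, whereas C1q comes mostly from macrophages and other myeloid cells, which makes tumour macrophages a known local source. The 8 genes named here were all found among the 32245 gene symbols of the files, each on 1 row, and are described in every cell class and macrophage program of the tumours.

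The data were 2 droplet single-cell RNA libraries from tumours of MC38-OVA, a colon carcinoma line of the mouse that was given ovalbumin as a model antigen. The sitagliptin library came from mice on a diet with sitagliptin, an inhibitor of the peptidase DPP4, and the control library from mice on the control diet. Both were labelled wild type, and both were enriched for cells with CD45 by magnetic beads before 5' libraries were made with a SeekOne DD kit. Neither the labels nor the files state the age, sex or number of the mice pooled. With 1 library per diet, diet and library cannot be told apart, no test between diets was possible, and every interval below is a 95% interval for counting error only.

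The sitagliptin library had 9766 barcodes and 76788699 UMIs (unique molecule counts), and the control library had 8694 barcodes and 64139749 UMIs. The lowest total in both was 2001 UMIs, and 132 barcodes occurred in both libraries. Cell classes were called from UMIs of marker lists that hold none of the 8 complement genes. A macrophage or monocyte had to pass the limit of its own list and not be lower in it than in the other list. The sitagliptin library had 4897 macrophages, 1066 monocytes and 679 barcodes of the same lineage that qualified as neither, called intermediates here. It had 376 T cells, 119 NK cells, 12 neutrophils, 30 cDC1, 43 cDC2, 50 mature dendritic cells, 20 plasmacytoid dendritic cells and 4 B cells. The control library had 3787 macrophages, 721 monocytes, 787 intermediates, 203 T cells, 74 NK cells, 17 neutrophils, 16 cDC1, 24 cDC2, 46 mature dendritic cells, 10 plasmacytoid dendritic cells and 3 B cells. Neutrophil, dendritic and B cell values are therefore thin. Barcodes with little Ptprc, the gene for CD45, numbered 689 in the sitagliptin and 1101 in the control library. The list of the monocyte and macrophage lineage is called the phagocyte list here. By their rule, barcodes with little Ptprc had at least 5000 UMIs, under 1 Ptprc UMI per 10000 and at most 7.5 phagocyte-list UMIs per 10000. Their 6 tumour-like markers together had 0.931 CPM (counts per 1000000 UMIs of the class) in the sitagliptin library and 0.334 CPM in the control library, and Cdkn2a was at 0 in both, so they are called by their rule and not as tumour cells. Among the few single genes looked at there, Cald1 had 914 CPM in the sitagliptin library and 972 CPM in the control library. A list of 6 fibroblast genes together had 385 CPM in the sitagliptin and 298 CPM in the control library.

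The C1q genes lie next to each other on chromosome 4, in the order C1qb, C1qc, C1qa, with no other RefSeq gene between them. RefSeq's promoter table for GRCm38.p6 held 6 of the 8 genes. C1qb and C1qc are printed because they are neighbours with like levels across classes, and C3 because its pattern across classes differed from theirs. The 250 bases upstream of each start site are given 5' to 3' on the gene's own strand, which is the minus strand for all 3. The genome build behind the deposited counts is not stated in the sources, so the coordinates belong to the RefSeq table alone. The regions are chr4:136886201-136886450 for C1qb, chr4:136892915-136893164 for C1qc and chr17:57228137-57228386 for C3.
C1qb: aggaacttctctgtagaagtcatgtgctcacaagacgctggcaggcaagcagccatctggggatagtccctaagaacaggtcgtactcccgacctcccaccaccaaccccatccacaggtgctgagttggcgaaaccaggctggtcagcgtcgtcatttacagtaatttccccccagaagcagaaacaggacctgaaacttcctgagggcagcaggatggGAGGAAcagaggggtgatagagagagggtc
C1qc: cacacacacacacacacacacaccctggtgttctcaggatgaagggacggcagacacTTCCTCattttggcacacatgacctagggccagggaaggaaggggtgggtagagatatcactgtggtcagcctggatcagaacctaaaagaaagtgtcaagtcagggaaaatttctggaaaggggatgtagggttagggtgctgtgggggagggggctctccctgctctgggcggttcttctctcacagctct
C3: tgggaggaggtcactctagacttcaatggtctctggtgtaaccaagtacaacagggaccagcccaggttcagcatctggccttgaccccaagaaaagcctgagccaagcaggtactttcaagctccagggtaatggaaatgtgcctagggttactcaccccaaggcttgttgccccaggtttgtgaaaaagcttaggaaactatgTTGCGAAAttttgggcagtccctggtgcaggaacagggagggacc
Capitals mark matches to 3 motifs searched on both strands, the ETS and PU.1 core GAGGAA, the C/EBP motif TTGCNNAA and the AP-1 motif TGANTCA. The ETS and PU.1 core stands 30 to 25 bases before the start in C1qb, and on the other strand 193 to 188 bases before the start in C1qc. It occurred in 23.3% of the 32851 promoters of the table. The C3 window held instead a C/EBP match 45 to 38 bases before the start, a motif found in 9.56% of promoters. The window of C3ar1 held an AP-1 match (6.75% of promoters), and those of Cfp and C5ar1 held none of the 3 motifs. Each window with a match held 1, so no motifs overlapped.

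C1q transcripts were macrophage transcripts in these tumours. C1qa had 1323 CPM (1310 to 1335) in macrophages of the sitagliptin library and 1665 CPM (1648 to 1682) in macrophages of the control library. In intermediates C1qa had 361 CPM in the sitagliptin library and 380 CPM in the control library, and in monocytes 135 CPM in the sitagliptin library and 138 CPM in the control library. The order macrophages, intermediates, monocytes was the same for C1qb and C1qc in both libraries, and no intervals of neighbouring classes in that order overlapped. By markers, intermediates were low in both lists rather than midway between the classes. Their macrophage list had 587 CPM in the sitagliptin and 555 CPM in the control library, below sitagliptin (1017 CPM) and control (920 CPM) monocytes. Their monocyte list had 604 CPM in sitagliptin and 602 CPM in control, against 4107 CPM in sitagliptin and 3855 CPM in control monocytes. C1qb had 2234 CPM in sitagliptin and 2768 CPM in control macrophages, against 324 CPM in sitagliptin and 371 CPM in control monocytes. C1qc had 1524 CPM in sitagliptin and 1945 CPM in control macrophages, against 170 CPM in sitagliptin and 169 CPM in control monocytes. Macrophages held 81.8% of all C1qa UMIs of the sitagliptin library and 78.8% of those of the control library.

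**Figure D1:**
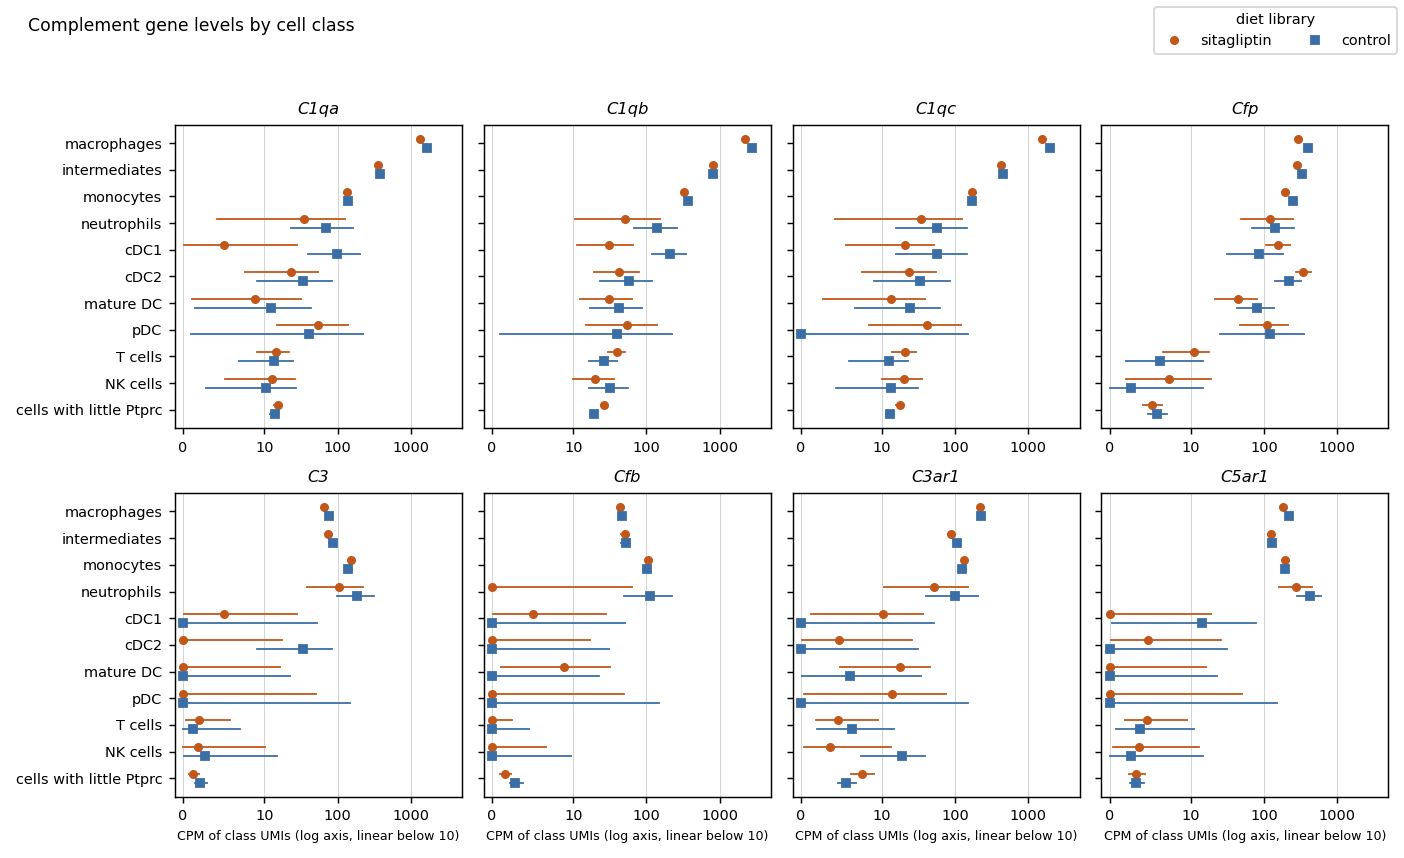
Level of each complement gene in CPM of the class total (log axis, linear below 10), by cell class, with 1 point per library and lines for the 95% Poisson interval; the sitagliptin library is the upper point of each pair. The C1q genes step down from macrophages (C1qa 1323 CPM sitagliptin, 1665 CPM control) to monocytes (135 CPM sitagliptin, 138 CPM control), while C3 and Cfb are higher in monocytes than in macrophages.

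Single barcodes showed the same step. Each barcode was thinned to 2000 UMIs so that depth could not set the share with a transcript. All 3 C1q genes were then seen in 54.7% of sitagliptin and 59.0% of control macrophages, and in 5.25% of sitagliptin and 5.83% of control monocytes. None of the 3 was seen in 9.41% of sitagliptin and 10.01% of control macrophages, and in 71.4% of sitagliptin and 67.7% of control monocytes. In T cells, taken here as background, C1qa was seen in 2.39% of sitagliptin and 2.96% of control cells after the same thinning. C1qb was seen there in 8.51% of sitagliptin and 4.43% of control cells. C1qc was seen in 3.19% of sitagliptin and 2.96% of control T cells. These T cell shares are for 1 gene each, so they cannot be set against the shares with all 3 genes or with none. The spread among macrophages was wide. The 3 genes together had a median of 28.6 UMIs per 10000 in sitagliptin and 32.8 in control macrophages, with 10th and 90th percentiles of 4.001 and 88.9 in the sitagliptin library and 3.24 and 113 in the control library. Across single macrophages, log2 levels of the C1q chains were correlated with each other at r of 0.67 to 0.71 in the sitagliptin library (4897 cells) and 0.72 to 0.76 in the control library (3787 cells). C3 and C1qa had an r of -0.029 in both libraries across the same cells. Such correlations describe cells of 1 library that share its chemistry and depth, and low counts lower them.

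The balance among the C1q chains differed between classes. C1qb made up 44.0% (43.7 to 44.2) of C1q UMIs in sitagliptin macrophages and 43.4% (43.1 to 43.7) in control macrophages. In monocytes C1qb made up 51.5% (49.7 to 53.3) in the sitagliptin library and 54.7% (52.5 to 57.0) in the control library, above the macrophage interval in both. Intermediates had 50.6% in the sitagliptin and 49.96% in the control library. Among macrophage programs the C1qb share ran from 42.0% in sitagliptin and 40.4% in control resident-like macrophages to 49.1% in sitagliptin and 46.9% in control inflammatory macrophages. The share did not follow the C1q level throughout: barcodes with little Ptprc, very low in C1q, had 44.2% in the sitagliptin and 41.7% in the control library.

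C3 and Cfb were ordered the other way. C3, the central component that every pathway cleaves, had 155 CPM (144 to 167) in sitagliptin monocytes and 141 CPM (127 to 156) in control monocytes. In macrophages C3 had 65.8 CPM (63.1 to 68.6) in the sitagliptin library and 75.8 CPM (72.2 to 79.5) in the control library. Cfb had 106 CPM (96.5 to 115) in sitagliptin and 101 CPM (89.4 to 113) in control monocytes, against 44.0 CPM in sitagliptin and 45.9 CPM in control macrophages. Monocytes were thus above macrophages in both libraries for both genes, with no overlap of intervals. Neutrophils had 103 CPM of C3 from 6 UMIs in the sitagliptin library and 183 CPM from 13 UMIs in the control library, too few to place them against monocytes. In lymphocytes both were low. C3 had 3 UMIs in sitagliptin and 1 UMI in control T cells, and Cfb had 0 UMIs in T cells of both libraries, which allows up to 2.42 CPM in the sitagliptin and 4.61 CPM in the control library as the upper end of the interval. Dendritic values rest on too few UMIs to place, such as C3 in cDC2 with 0 UMIs in the sitagliptin library (up to 17.2 CPM) and 33.2 CPM (9.05 to 85.1; 4 UMIs) in the control library.

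Properdin was read in all phagocyte and dendritic classes. Cfp had 288 CPM (282 to 294) in sitagliptin and 398 CPM (389 to 406) in control macrophages, 285 CPM in sitagliptin and 325 CPM in control intermediates, and 196 CPM in sitagliptin and 245 CPM in control monocytes. In cDC2 it had 345 CPM (271 to 433; 74 UMIs) in the sitagliptin library and 216 CPM (141 to 317; 26 UMIs) in the control library. The other dendritic classes were lower, with 157 CPM in sitagliptin and 84.0 CPM in control cDC1, and 44.2 CPM (21.2 to 81.2) in sitagliptin and 78.9 CPM (42.02 to 135) in control mature dendritic cells. Neutrophils had 121 CPM from 7 UMIs in the sitagliptin and 141 CPM from 10 UMIs in the control library. T cells had 11.2 CPM (6.51 to 17.9) in the sitagliptin and 6.24 CPM (2.03 to 14.6) in the control library, below the intervals of these classes, and the control cDC2 value rests on 24 cells.

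The receptors differed in where they peaked. C3ar1, the receptor for C3a, had 215 CPM (210 to 220) in sitagliptin and 225 CPM (219 to 231) in control macrophages, against 134 CPM in sitagliptin and 125 CPM in control monocytes. Intermediates had 88.7 CPM of C3ar1 in the sitagliptin and 107 CPM in the control library, below both. C5ar1, the receptor for C5a that guides neutrophils, had its largest values in neutrophils, with 276 CPM (158 to 448; 16 UMIs) in the sitagliptin library and 423 CPM (285 to 603; 30 UMIs) in the control library. In macrophages C5ar1 had 182 CPM in the sitagliptin and 219 CPM in the control library, and in monocytes 196 CPM in the sitagliptin and 194 CPM in the control library. The sitagliptin neutrophil interval reaches into the macrophage and monocyte values, and the control one does not. Neither receptor passed 20 CPM in T cells, NK cells or any dendritic class.

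Because some barcodes of the lineage qualified as neither class, it was also read along a marker axis. The axis is the share that macrophage-list UMIs took of the summed monocyte and macrophage marker UMIs of each barcode. The bin of 80 to 100% held 3689 sitagliptin and 2954 control barcodes. A middle share can also come from barcodes low in both lists, and whether the lineage forms a continuum was not tested. From the bin of 0 to 20% to the bin of 80 to 100%, C1qa went up from 59.7 to 1468 CPM in the sitagliptin library. In the control library C1qa went up from 105 to 1846 CPM over the same bins. C3 went down from 163 to 61.3 CPM in the sitagliptin library and from 127 to 70.0 CPM in the control library, and Cfb from 89.6 to 37.1 CPM in the sitagliptin library and from 84.6 to 41.2 CPM in the control library. C5ar1 had nearly the same value at both ends in the sitagliptin library, with 182 and 181 CPM, and went up from 155 to 224 CPM in the control library. The 3 C1q genes thus tracked the macrophage markers, and C3 and Cfb ran against them.

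**Figure D2:**
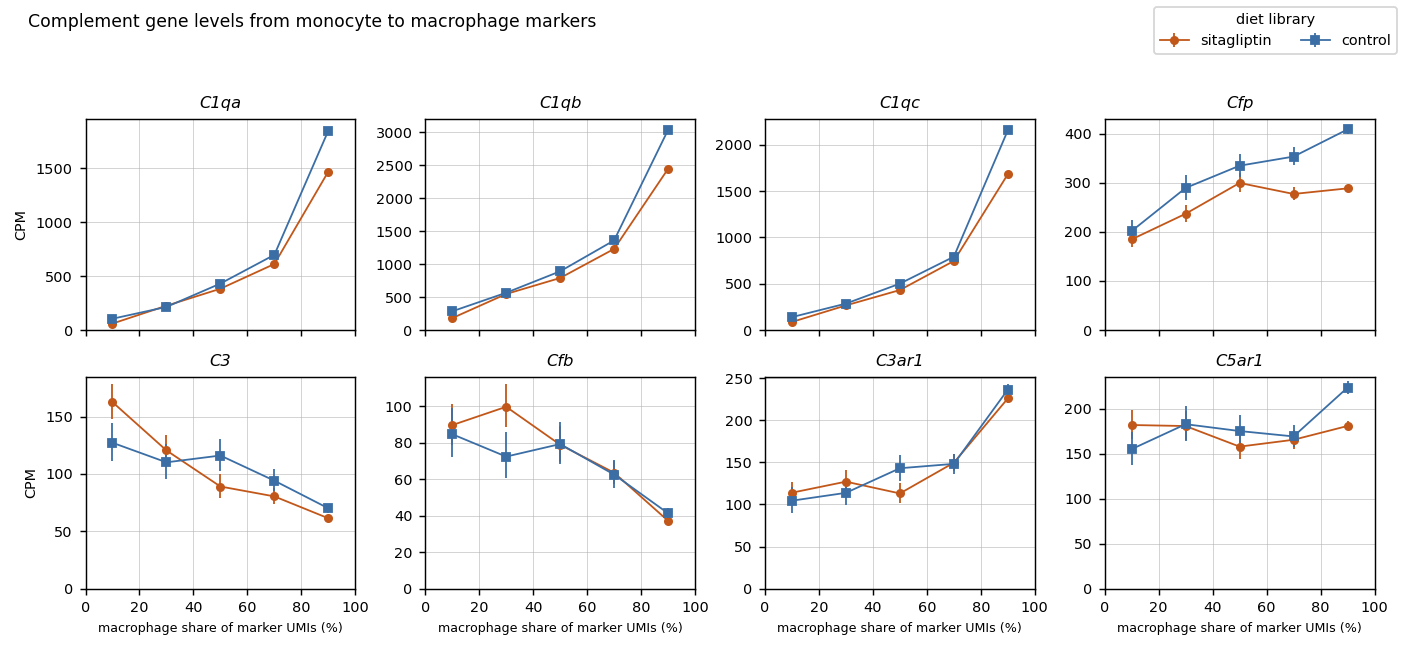
Level of each complement gene in CPM (linear axes from 0) in 5 bins of the share of macrophage-list UMIs among monocyte and macrophage marker UMIs; lines join the bins of a library and bars are 95% Poisson intervals. C1qa reaches 1468 CPM in the sitagliptin and 1846 CPM in the control library in the last bin, while C3 ends at 61.3 CPM in the sitagliptin and 70.0 CPM in the control library.

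Macrophages were split by marker programs, each barcode taking the program in which it stood highest. All 3 C1q genes were highest in resident-like macrophages, called by Folr2, Cd163, Lyve1, Cbr2 and Fcrls. C1qa had 2068 CPM in sitagliptin and 2910 CPM in control resident-like macrophages. Next came the program of Cxcl9 and Vcam1, with 1756 CPM in the sitagliptin and 2197 CPM in the control library, and the lipid-associated program of Gpnmb and Fabp5, with 1404 CPM in the sitagliptin and 2029 CPM in the control library. The low end held inflammatory macrophages, called by Cxcl3, Il1a and Ptgs2, with 481 CPM of C1qa in the sitagliptin and 749 CPM (715 to 785) in the control library, and Retnla macrophages, with 804 CPM in the sitagliptin and 794 CPM (707 to 889) in the control library. In the sitagliptin library inflammatory macrophages were the lowest for all 3 genes. In the control library the C1qa intervals overlapped, and Retnla macrophages were lower for C1qb (1346 CPM, against 1443 CPM in inflammatory) and for C1qc (791 CPM, against 887 CPM). The resident-like and inflammatory C1qa values differed 4.30-fold in the sitagliptin library and 3.88-fold in the control library, and their intervals were far apart. Resident-like barcodes were also deep, with medians of 10656 UMIs in the sitagliptin and 9220 UMIs in the control library, against 4945 UMIs over all sitagliptin and 4370 UMIs over all control macrophages; the part of depth in the level was not tested. The programs are ranges of a score, and 15.4% of sitagliptin and 14.4% of control macrophages lay within 0.2 of the limit.

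C3 and Cfb picked out other programs. C3 was highest in the Cxcl9 and Vcam1 program, with 138 CPM (128 to 149) in the sitagliptin and 151 CPM (137 to 167) in the control library, and lower in resident-like macrophages, with 33.2 CPM in the sitagliptin and 40.3 CPM in the control library. Cfb had 96.4 CPM (88.0 to 105) in sitagliptin and 72.1 CPM (62.2 to 83.0) in control macrophages of the Cxcl9 and Vcam1 program. In the MHC class II program Cfb had 71.5 CPM in the sitagliptin and 92.5 CPM in the control library, so the order of these programs was reversed between libraries, and in the control library their intervals overlapped. In resident-like macrophages Cfb had 24.7 CPM in the sitagliptin and 26.5 CPM in the control library. The program richest in C1q was thus among the poorest in C3 and Cfb. This did not hold across programs, since the next richest in C1qa, Cxcl9 and Vcam1, was the highest in C3. Inflammatory macrophages, low in C1q, were near resident-like ones in Cfb in the sitagliptin library (resident-like over inflammatory 0.961). In the control library that value was 0.683.

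Cfp and the receptors varied less between programs. Cfp ran from 231 CPM in interferon-program to 356 CPM in Retnla-program macrophages of the sitagliptin library, and from 294 CPM in the interferon to 466 CPM in the Cxcl9 and Vcam1 program of the control library. C3ar1 was highest in lipid-associated macrophages of the sitagliptin library (312 CPM) and in resident-like macrophages of the control library (342 CPM). C5ar1 was highest in inflammatory macrophages of both libraries, with 263 CPM (242 to 285) in the sitagliptin and 279 CPM (258 to 301) in the control library. Its interval there overlapped that of the control resident-like value of 268 CPM. Retnla macrophages, with 130 CPM in the sitagliptin and 134 CPM in the control library, were the lowest in C5ar1 in both.

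**Figure D3:**
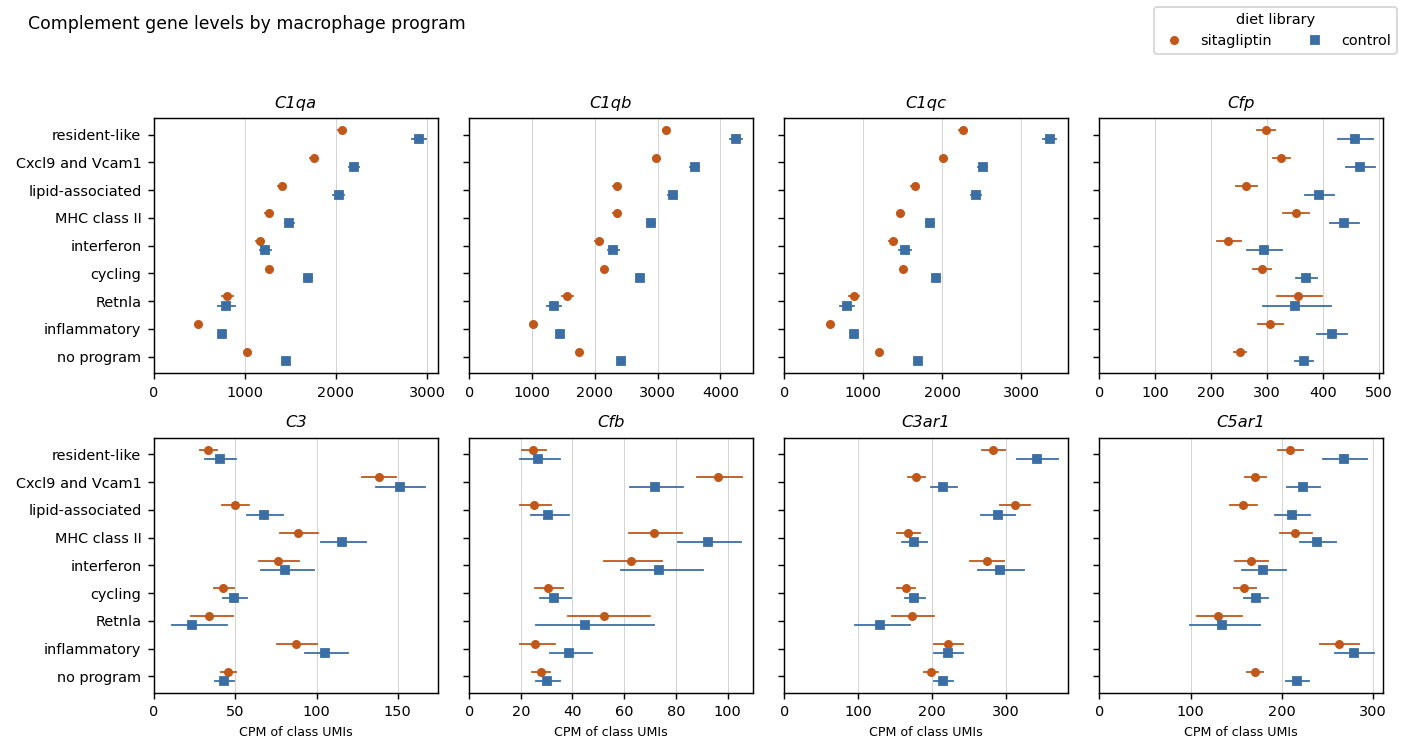
Level of each complement gene in CPM (linear axes from 0) in the macrophage programs, with 1 point per library, 95% Poisson intervals as lines and the sitagliptin library above the control library. C1qa is highest in resident-like macrophages (2068 CPM sitagliptin, 2910 CPM control) and low in inflammatory ones (481 CPM sitagliptin, 749 CPM control), and C3 is highest in the Cxcl9 and Vcam1 program (138 CPM sitagliptin, 151 CPM control).

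Between diets, C1q and properdin were lower per macrophage UMI in the sitagliptin library when all macrophages were summed. The ratio of CPM, sitagliptin over control, was 0.795 (0.784 to 0.806) for C1qa, 0.807 (0.799 to 0.816) for C1qb and 0.784 (0.774 to 0.794) for C1qc. For Cfp it was 0.724 (0.703 to 0.745), the lowest of the 8. C1qa, C1qc and Cfp, 3 of 8, had a ratio of at most 0.8, and none had one of at least 1/0.8, its reciprocal. Of all 10978 genes with at least 100 macrophage UMIs over both libraries, 11.7% had a ratio of at most 0.8 and 4.24% one at or above the reciprocal. The limit falls between C1qa and C1qb, whose ratios are close, and the median ratio of all tested genes was 0.947. With edgeR's TMM scaling of the class sums, 1 of 8 (Cfp, 0.766) stayed at or below 0.8, and C1qa had 0.840 and C1qc 0.829. C5ar1 had a ratio of 0.830 (0.799 to 0.862) and C3 one of 0.868 (0.814 to 0.925), while those of C3ar1, 0.956 (0.922 to 0.992), and Cfb, 0.958 (0.884 to 1.04), were near that median. The median log2 ratio of the 8 genes was -0.29, beside -0.08 over all tested genes.

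After thinning, C1qa was seen in 69.0% (67.7 to 70.3) of sitagliptin and 71.8% (70.4 to 73.3) of control macrophages, and C1qb in 82.01% of sitagliptin and 82.3% of control macrophages. Cfp was seen in 36.5% of sitagliptin and 44.97% of control macrophages. A share near its ceiling can move little with the level, so the C1q and Cfp shares are not compared with each other. Along the marker axis the C1qa levels of the libraries were 59.7 CPM (51.0 to 69.5) in the sitagliptin and 105 CPM (90.3 to 120.3) in the control library in the bin of 0 to 20%. They were 225 CPM in the sitagliptin and 214 CPM in the control library in the bin of 20 to 40%, and 611 CPM in the sitagliptin and 696 CPM in the control library in the bin of 60 to 80%. The sitagliptin library was thus lower at both ends of the axis, and close to the control library in the bin of 20 to 40%.

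In intermediates and in monocytes 0 of 8 genes passed either limit, where 26.3% of 7071 tested genes and 23.7% of 6251 did. Intermediates were not alike in make-up. Ctsk, Acp5 and Atp6v0d2, markers of osteoclast-like cells, together had 34.3 CPM in sitagliptin but 530 CPM in control intermediates. In monocytes the ratio was 0.981 (0.863 to 1.12) for C1qa, 0.873 (0.806 to 0.945) for C1qb, 1.004 (0.895 to 1.13) for C1qc and 0.801 (0.724 to 0.885) for Cfp. C3 had 1.10 (0.970 to 1.24) and C5ar1 1.01 (0.905 to 1.12). The macrophage and monocyte ratios of C1qa and C1qc did not overlap in their intervals, and those of C1qb and Cfp did. Whether the diets differed more in macrophages than in monocytes was not tested, since that needs replicate libraries.

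Within programs the C1qa ratio was 0.641 (0.594 to 0.692) in inflammatory, 0.692 (0.663 to 0.722) in lipid-associated and 0.711 (0.687 to 0.736) in resident-like macrophages. It was 0.746 in cycling, 0.799 in Cxcl9 and Vcam1, 0.847 in MHC class II, 0.950 (0.889 to 1.01) in interferon and 1.01 (0.883 to 1.16) in Retnla macrophages. C1qa was therefore lower in the sitagliptin library in most programs, and the intervals reached 1 in the interferon and Retnla programs. In the Retnla program C1qb was higher in the sitagliptin library, with a ratio of 1.16 (1.05 to 1.29), and C1qc had 1.11 (0.968 to 1.27). Counting genes with a ratio of at most 0.8, lipid-associated macrophages had 6 of 8 (14.8% of all tested genes), resident-like 5 (15.2%), inflammatory 5 (16.3%), cycling 4 (12.7%), Cxcl9 and Vcam1 4 (12.7%), MHC class II 3 (11.0%), interferon 1 (17.9%) and Retnla 0 of 6 tested (11.2%). Macrophages above no program limit had 5 of 8 (17.1%). The mix of programs differed too: resident-like macrophages were 8.29% of macrophages in the sitagliptin and 5.20% in the control library, and inflammatory ones 7.92% in the sitagliptin and 11.01% in the control library. Weighting both libraries to the same mix gave a C1qa ratio of 0.750, beside 0.795 without the weights.

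Cfb did not move one way. Its ratio was 1.34 (1.13 to 1.59) in the Cxcl9 and Vcam1 program, where 7.4% of tested genes were at or above the upper limit, and 0.661 (0.469 to 0.927) in inflammatory and 0.773 (0.635 to 0.941) in MHC class II macrophages. C3ar1 had a ratio of 1.34 (0.961 to 1.89) in the Retnla program, from 148 UMIs in the sitagliptin and 49 UMIs in the control library, where 16.5% of genes passed the upper limit. Cfp in cDC2 had 1.60 (1.01 to 2.60). These ratios rest on few UMIs and on 1 library per diet.

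**Figure D4:**
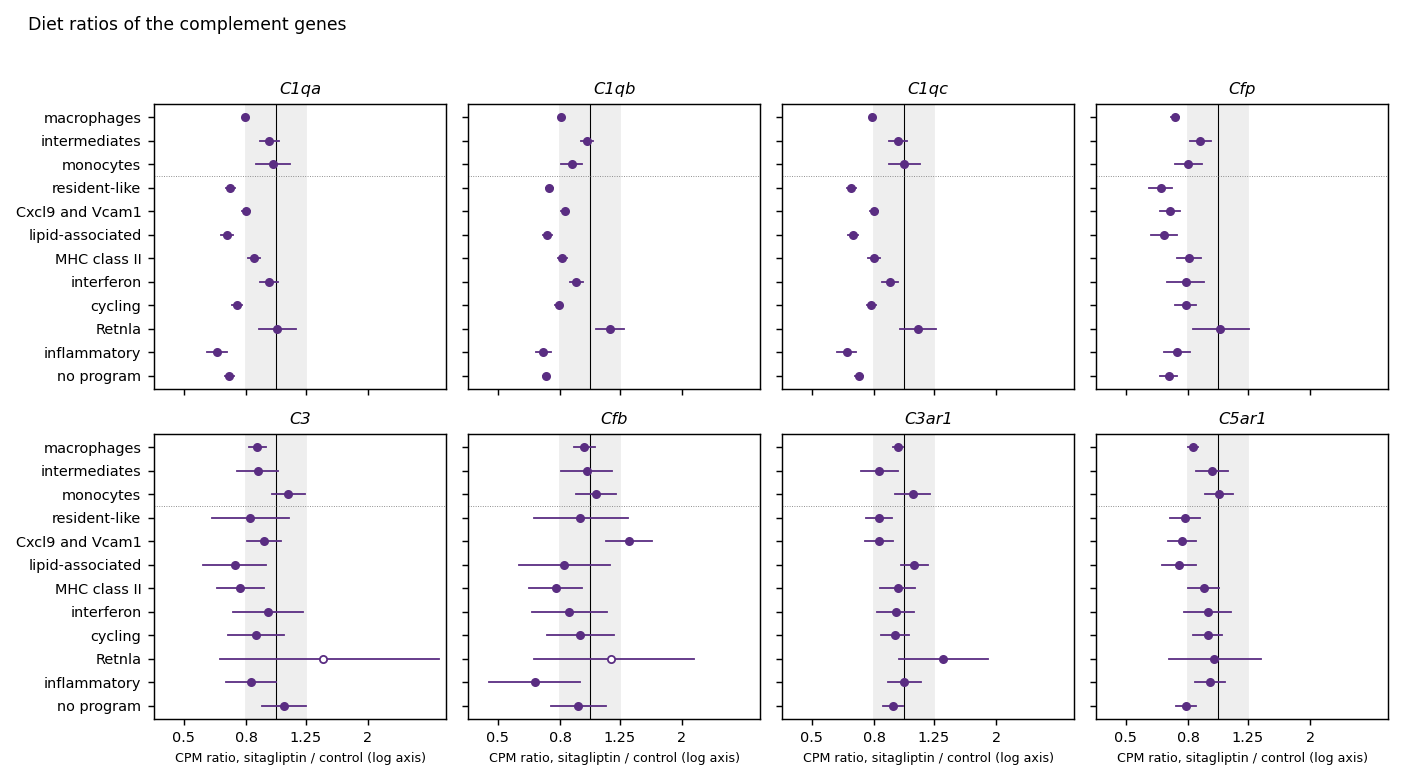
Ratio of CPM, sitagliptin over control (log axis), for each complement gene in macrophages, intermediates, monocytes and, below the dotted line, the macrophage programs; lines are 95% counting intervals, the grey band runs from 0.8 to its reciprocal and open points have under 100 UMIs. C1qa lies at 0.795 in macrophages and at 0.981 in monocytes, and Cfb at 1.34 in the Cxcl9 and Vcam1 program.

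Over all kept barcodes of a library the diet difference nearly closed for the C1q genes and narrowed for Cfp. C1qa had 758 CPM in the sitagliptin and 798 CPM in the control library, and Cfp 197 CPM in the sitagliptin and 223 CPM in the control library. C3ar1 had 132 CPM in the sitagliptin and 118 CPM in the control library, above 1 in ratio where the macrophage ratio was below. Cfb, with 38.4 CPM in the sitagliptin and 34.8 CPM in the control library, changed side in the same way. So did C3, with 54.9 CPM in the sitagliptin and 52.4 CPM in the control library. Macrophages were 53.3% of kept sitagliptin and 46.3% of kept control barcodes. Barcodes with little Ptprc, deep and poor in complement transcripts, were 7.51% of sitagliptin and 13.5% of control barcodes. Their rule asks for at least 5000 UMIs and caps phagocyte-list UMIs. It thus sets their depth and favours low macrophage RNA. In a whole library, the number of macrophages and the level in each cannot be told apart from the sum.

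C1q in lymphocytes gave a view of free RNA, since T and NK cells are not known to make it. T cells had C1qa at 14.5 CPM (22 UMIs) in the sitagliptin and 13.7 CPM (11 UMIs) in the control library, which is 1.09% (0.685 to 1.65) of the macrophage level in the sitagliptin and 0.825% (0.412 to 1.48) in the control library. Over the 3 C1q genes, T cells had 1.09 to 1.76% of the macrophage level in the sitagliptin and 0.642 to 0.947% in the control library, and NK cells 0.892 to 1.31% in the sitagliptin and 0.634 to 1.14% in the control library. Barcodes with little Ptprc had 1.15 to 1.17% in the sitagliptin and 0.656 to 0.826% in the control library. The percents in these 3 kinds of barcode were of like size. All 3 were called under the same cap on phagocyte-list UMIs, so that likeness is partly set by the calling. Other transcripts read in macrophages did not all stand at this level in T cells. Arg1 was at 1.61% in the sitagliptin and 0.902% in the control library, and Pf4 at 0.312% in the sitagliptin and 0.677% in the control library. Spp1 stood higher, at 6.43% (5.65 to 7.29) in the sitagliptin and 6.81% (5.88 to 7.84) in the control library, and so did Selenop, at 5.48% in the sitagliptin and 5.84% in the control library. Spp1 was at 28.6% in sitagliptin and 25.1% in control NK cells. In barcodes with little Ptprc it was at 24.5% in the sitagliptin and 17.1% in the control library. Selenop was at 11.0% in sitagliptin and 7.94% in control NK cells, but at 1.80% in sitagliptin and 1.32% in control barcodes with little Ptprc. The source of these transcripts was not tested. These transcripts beside C1q were chosen after their values were seen. B cells had 0 C1qa UMIs in both libraries but were too few to add a value, with upper ends of 133 CPM in the sitagliptin and 267 CPM in the control library.

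**Figure D5:**
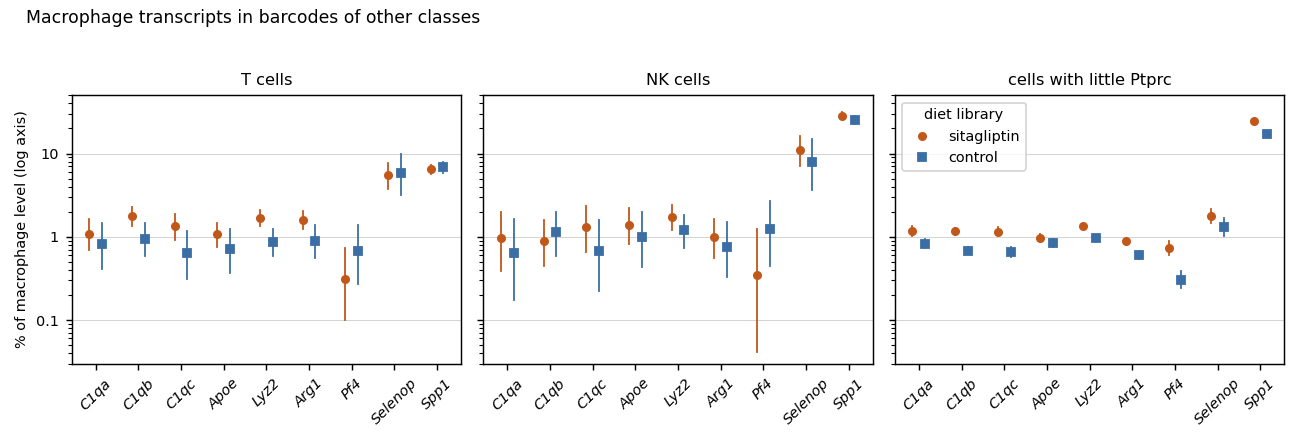
Level of C1q and of other transcripts read in macrophages in T cells, NK cells and barcodes with little Ptprc, as a percent of the level in macrophages of the same library (log axis); lines are 95% counting intervals, and the sitagliptin point stands left of the control point. C1qa lies at 1.09% in sitagliptin and 0.825% in control T cells, and at 1.17% in sitagliptin and 0.826% in control barcodes with little Ptprc, while Spp1 lies at 6.43% in sitagliptin and 6.81% in control T cells.

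The view depends on the limit that keeps phagocyte-list UMIs out of lymphocytes. When Apoe and Lyz2 were left out of the lists, C1qa in T cells came to 79.3 CPM in the sitagliptin and 151 CPM in the control library. Barcodes that carried a T or NK list together with the phagocyte list, 534 in the sitagliptin and 634 in the control library, were kept out of all classes. In the sitagliptin library they had C1qa at 81.0%, C3 at 122% and Cfb at 160% of the macrophage level, with a median of 10003.5 UMIs. In the control library they had C1qa at 72.0%, C3 at 107% and Cfb at 148% of the macrophage level, with a median of 8605.5 UMIs. Their Cfb was above that of macrophages in both libraries, and T cells had 0 Cfb UMIs.

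Against this background, C1qa in monocytes stood at 135 CPM beside 14.5 CPM in T cells of the sitagliptin library, and at 138 CPM beside 13.7 CPM in T cells of the control library. The gap depends on the lists: without Apoe and Lyz2, monocytes had 169 CPM (157 to 181) in the sitagliptin library, above the 79.3 CPM (66.9 to 93.3) of T cells, but 184 CPM (168 to 201) in the control library, where the interval overlapped that of T cells at 151 CPM (129 to 176). The dendritic classes rest on few UMIs. C1qa had 5 UMIs in sitagliptin and 4 in control cDC2, and 2 in mature dendritic cells of each library. C1qb in control cDC1 had 210 CPM from 15 UMIs in 16 cells, against 30.4 CPM from 6 UMIs in 30 sitagliptin cells, and cDC1 markers there stood beside macrophage-list levels of 96.4 CPM in the sitagliptin and 70.0 CPM in the control library. The macrophage-list level was 59.8 CPM in sitagliptin and 54.9 CPM in control T cells.

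For each gene, the 5 genes with the most similar levels were taken over 38 points, which are 19 classes and programs in both libraries, by Pearson's r of log2(CPM + 10) among 6843 genes that reached 50 CPM. The points share libraries and lineage, so high values are common. C1qa was followed by C1qb (r = 0.993), C1qc (0.985), Cxcl14 (0.963), Stab1 (0.940) and Ccl12 (0.930). C3 was followed by Prdx5 (0.939), Fcgr4, Trem1, Tgm2 and Klra2 (0.928), and C1qa stood at rank 334 for it. Cfb was nearest Mdm2 (0.879), Cyp4f18, Fcgr4, Klra2 and Clec4a1, with C3 at rank 6 (0.868). Fcgr4 and Klra2 were thus on the lists of both C3 and Cfb. Cfp was nearest Ctss (0.949), Fcgr2b, Sdc3, Alox5ap and Erp29. C3ar1 was nearest 4930430E12Rik (0.984), Abca1, Msr1, Arg1 and Ccl7, and C5ar1 nearest Apoc2 (0.978), Slc11a1, Cd300ld, Cxcl2 and Arg1.

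The rest of the complement system was thinly read. Of 44 further genes listed, 5 had 0 UMIs in all and 16 had fewer than 20, among them C8a, C8b, Mbl1, Mbl2 and Cfi, which are known as liver products. Hc, the gene of C5, had 29 UMIs. In macrophages 16 of the 44 had at least 100 UMIs, of which 2 were at or above the upper limit, beside 4.24% of all tested genes, and 0 at or below 0.8, beside 11.7%. Their median log2 ratio was -0.01, against -0.08 over all tested genes. C4b, the C4 component of the classical pathway, had 6.73 CPM in sitagliptin and 4.76 CPM in control macrophages (ratio 1.41, 1.12 to 1.80). C1qbp, a mainly mitochondrial protein first named as a C1q binder, had a macrophage ratio of 1.38 (1.30 to 1.47). C1ra, the protease that partners C1q, had 7.46 CPM in sitagliptin and 7.90 CPM in control macrophages (ratio 0.944, 0.775 to 1.15).

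Regulators and receptors beyond the 8 genes were read as well. Itgam, a chain of complement receptor 3, had 780 CPM in sitagliptin and 743 CPM in control monocytes and a macrophage ratio of 0.956 (0.935 to 0.977), and its partner Itgb2 had one of 0.897. Cd93 had 104 CPM in sitagliptin and 107 CPM in control macrophages. Vsig4, the receptor of tissue macrophages for C3 fragments, had 6 UMIs in all. By the lower of the values in both libraries, C1qbp, Clu, C2, Masp1, C1s1 and Cd46 were highest in barcodes with little Ptprc. There C1qbp had 385 CPM in the sitagliptin and 269 CPM in the control library. Clu had 15.5 CPM there in the sitagliptin and 18.3 CPM in the control library. Cd55 and Cr1l, membrane regulators, were highest in NK cells.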

How the data were processed

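The values are UMI counts per gene and barcode, as the authors deposited them in 1 matrix per library, and no aligner, counting program or genome build is stated in the sources. Counts were read with scanpy 1.11.5 under Python 3.11.15, and rows that share a symbol were summed. All barcodes had at least 500 UMIs, at least 200 genes and at most 20% mitochondrial UMIs. The automatic Scrublet threshold called 0 doublets, so the top 6% of scores was removed, 586 in the sitagliptin and 522 in the control library. This left 9180 sitagliptin and 8172 control barcodes. The protocol names CD45+ cells sorted by MACS, and the floor of 2001 UMIs can leave out cells with little RNA.

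The 8 genes, the marker lists and the other complement genes were chosen with earlier results of these data known, and the calling limits were set after the marker sums were seen. Limits are a minimum of list UMIs and of list UMIs per 10000, for example 3 and 10 for the macrophage list. T, NK and B cells and barcodes with little Ptprc could hold at most 7.5 phagocyte-list UMIs per 10000. A macrophage took the program with its highest standardised score, of at least 1 and from at least 3 UMIs. The 8 genes are named in every class. Other complement genes are named where a class had at least 20 UMIs in each library; those named for low counts (C8a, C8b, Mbl1, Mbl2, Cfi, Hc, Vsig4) were picked after their values were seen. Class sums of UMIs in each library are given as CPM with exact Poisson intervals. Diet ratios had exact conditional binomial intervals, and shares exact Clopper-Pearson intervals. edgeR 4.0.16 gave the TMM scaling of 1 alternative and no test.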

Additional observations from a re-analysis of the deposited data

Results flagged for a closer look

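Some diet ratios (sitagliptin over control) of the same gene were at or beyond the limits in opposite directions in different classes or programs; the difference between classes was not tested, as there is 1 library per diet. Cfb had 1.34 in the Cxcl9 and Vcam1 program, against 0.661 in inflammatory and 0.773 in MHC class II macrophages. C1qb had 1.38 in barcodes with little Ptprc, against 0.737 in resident-like, 0.705 in inflammatory, 0.727 in lipid-associated and 0.79 in cycling macrophages and 0.719 in those of no program. C1qc had 1.37 in barcodes with little Ptprc, against 0.784 in macrophages as a whole. By program its ratio was 0.673 in resident-like, 0.649 in inflammatory, 0.68 in lipid-associated, 0.798 in MHC class II, 0.782 in cycling and 0.8 in Cxcl9 and Vcam1 macrophages, and 0.713 in those of no program. In barcodes with little Ptprc, 3 of 6 tested members were at or above the upper limit, beside 6.29% of 10449 tested genes. C1qa there had a ratio of 1.13 (0.938 to 1.35). C1qb there had 26.1 CPM in the sitagliptin and 18.9 CPM in the control library. That is 1.17% of the macrophage level in the sitagliptin and 0.684% in the control library, of like size to the T cell percents read as free RNA. The same cap on phagocyte-list UMIs held for both kinds of barcode, so that likeness is partly set by the calling. In barcodes with little Ptprc, C1qc had 263 UMIs in the sitagliptin and 229 in the control library. Pf4, a macrophage transcript, had 7.72 CPM there in the sitagliptin and 3.95 CPM in the control library. That is 0.733% of the macrophage level in the sitagliptin and 0.306% in the control library. In CPM, Spp1 there had 610 in the sitagliptin and 605 in the control library, and Lyz2 46.3 in the sitagliptin and 43.2 in the control library. Lyz2 is on the phagocyte list that the rule of these barcodes caps.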

How the results depend on the processing

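The 8 macrophage diet ratios (sitagliptin over control) were recomputed under 12 alternatives, of which 4 were added after seeing the data (the whole lineage, all kept barcodes, macrophages of at least 5000 UMIs, and no barcodes found in both libraries). C1qa, C1qb, C1qc, Cfp and C5ar1 stayed below 1 in all 12, and no ratio at or below 0.8 crossed to the other side of 1. Values outside the counting interval were as follows. Limits 1.5 times stricter gave 0.779 for C1qa, 0.788 for C1qb and 0.767 for C1qc. Leaving Apoe and Lyz2 out of the lists gave 0.808 for C1qa, and keeping doublets 0.817 for C1qb. TMM gave 0.840 for C1qa, 0.854 for C1qb, 0.829 for C1qc, 0.766 for Cfp, 1.01 for C3ar1 and 0.877 for C5ar1. The share of cells with a UMI after thinning gave 0.961 for C1qa, 0.996 for C1qb, 0.969 for C1qc, 0.811 for Cfp, 0.999 for C3ar1 and 0.893 for C5ar1. The mean over cells gave 0.754 for Cfp and 0.871 for C5ar1. The same mix of programs gave 0.750 for C1qa, 0.773 for C1qb and 0.743 for C1qc. Macrophages, intermediates and monocytes together gave 0.807 for C1qa, 0.820 for C1qb, 0.797 for C1qc and 0.865 for C5ar1. All kept barcodes gave 0.950 for C1qa, 0.960 for C1qb, 0.942 for C1qc, 1.05 for C3, 1.10 for Cfb, 0.885 for Cfp, 1.12 for C3ar1 and 0.988 for C5ar1. Macrophages of at least 5000 UMIs gave 0.761 for C1qa, 0.776 for C1qb, 0.752 for C1qc, 0.685 for Cfp and 0.790 for C5ar1. Without barcodes found in both libraries, no ratio left its interval. The cause of these shifts was not tested. The number of the 8 genes at or below 0.8 ran from 0 (thinned shares and all kept barcodes) to 5 (at least 5000 UMIs). With a minimum of 20 UMIs, 15.9% of macrophage genes were at or below 0.8 and 8.7% at or above its reciprocal; with no minimum above 1 UMI, 24.8% and 21.8%. No paired analysis was possible because each diet had 1 library. Neutrophil, dendritic and B cell levels are limited by 3 to 50 cells a library.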
